A study of Mus musculus with 6 samples.

Results

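Interstitial stroma and progenitor genes of the juvenile mouse testis are the subject here, namely Nr2f2, Tcf21, Pdgfra, Col1a1, Col3a1, Dcn, Lum, Ogn and Mfap4. The 9 genes, a given list, were found by matching their symbols in GENCODE M21 to the Ensembl identifiers of the count table, and all 9 were present among 49671 gene rows. RNA was sequenced from the whole testis of juvenile C57BL/6J animals, 12 days post-partum. The 3 knockout mice were Ankrd31-/- and the 3 wild-type mice Ankrd31+/+. The product of Ankrd31 acts with the machinery that makes the DNA breaks of meiosis. The sources used here do not describe the knockout allele, and they name no cell type in which it was restricted. Depth ran from 21014060 to 22706296 counts per library, and all 9 genes passed the filter on low counts that left 18040 genes for testing.

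The space between the seminiferous tubules holds fibroblast-like stromal cells, Leydig cells and their progenitors, vessels and macrophages. Stromal and progenitor cells are recognised by transcription factors and surface receptors, and they lay down a matrix of collagen fibrils, fibril-binding proteoglycans and elastic microfibrils. Ankrd31 is known as a germ cell gene, so the comparison asks whether these somatic transcripts differed when it was lost.

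No gene of the 9 passed the test in knockout against wild-type testes. The count was 0 of 9 members in edgeR's quasi-likelihood test, against 0 of 18040 genes overall (0%), with Benjamini-Hochberg adjustment over all tested genes and a threshold of 0.05. At an unadjusted p under 0.05 the count was 0 of 9, against 374 genes (2.07%), of which the lower ones were 1.23% of all tested genes. The knockout libraries overlapped the wild-type libraries in each of the 9 genes, whereas in 3.5% of all tested genes every knockout library lay below every wild-type library and in 3.09% every one lay above. The groups share replicate numbers 1 to 3, and with the replicate number as a block 0 of 9 members passed in edgeR, against 8 genes overall (0.0443%). DESeq2 called 2 genes and limma voom 0 without the block, 14 and 8 with it, and 0 of the 9 members under each. Of the 9 log2 fold changes, knockout over wild type, 6 were below 0, against 52.2% of all tested genes, and their median was -0.11, against -0.0048 over all genes.

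**Figure D1:**
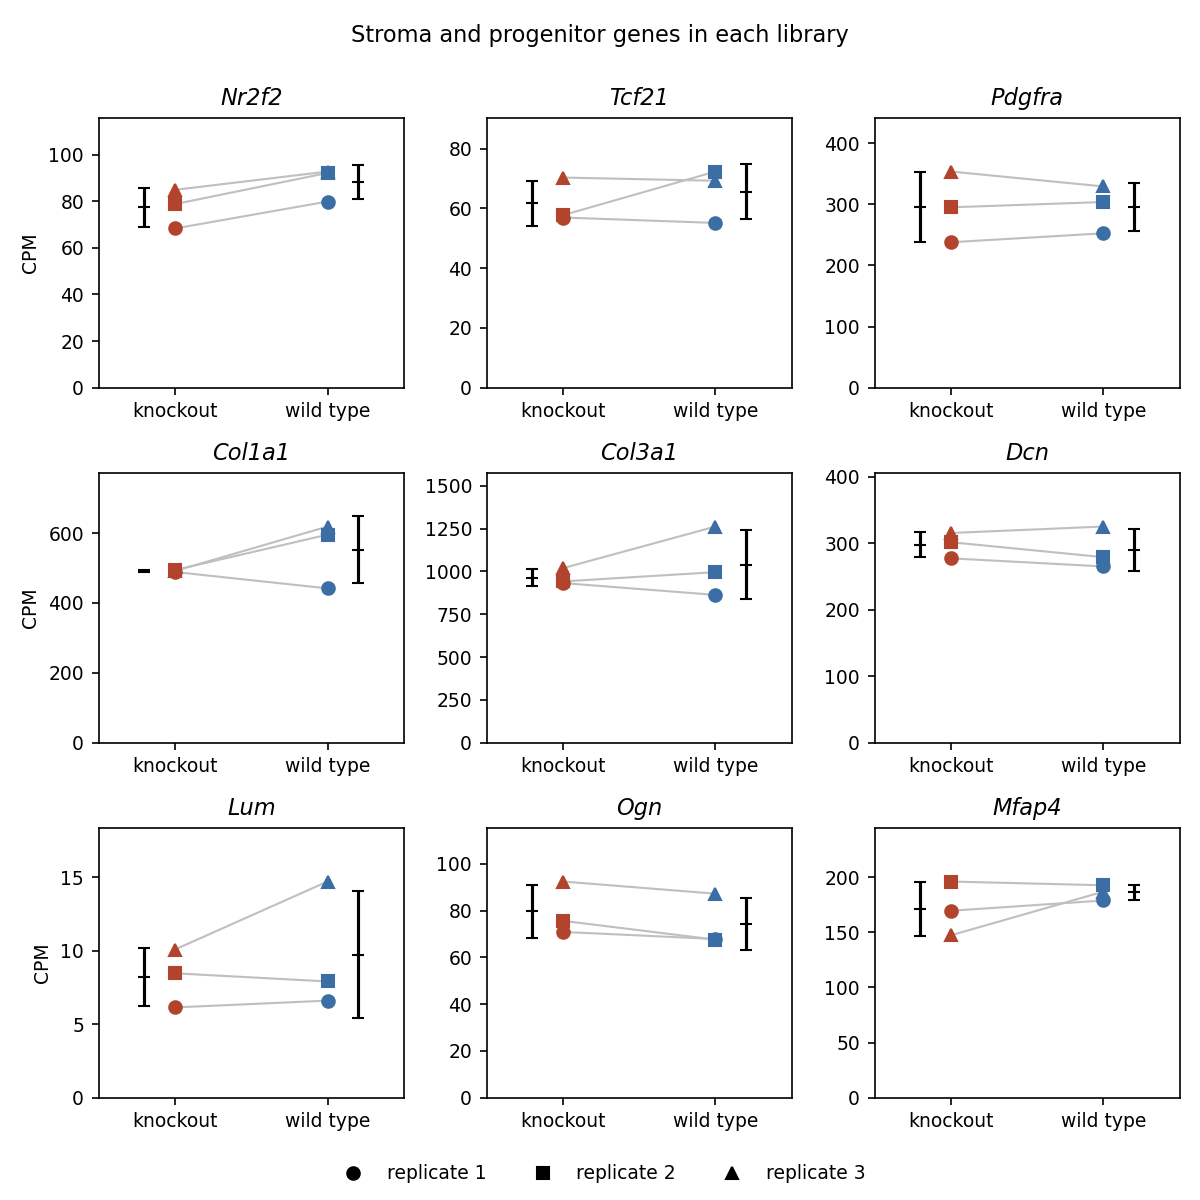
Level in CPM (linear axes from 0) of the 9 genes in each library, knockout at the left of each panel and wild type at the right. Grey lines join libraries of the same replicate number, and black bars give mean and SD of 3 libraries. The groups overlap in all 9 panels, and Nr2f2 has its knockout library lower in each of the 3 pairs.

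Levels are given as CPM, each count divided by the effective library size and multiplied by a common factor. Ankrd31, the targeted gene, had 40.8, 33.2 and 38.0 CPM in the knockout libraries, against 84.9, 52.3 and 63.2 CPM in the wild-type libraries, so every knockout library was below every wild-type library. Its log2 fold change was -0.84 ± 0.17 (SE, edgeR adjusted p = 1), and with the block the edgeR adjusted p was 0.00505. The counts cover the whole gene and check the genotype in part only. Replicate 1 gave the lowest level of 8 of the 9 stroma genes within the knockout group and of 8 of 9 within the wild-type group. Wild-type replicate 3 stood apart by markers of adjoining tissues, whose values are given with the matrix genes. The RNA came from whole testes, so fewer cells of a type and less RNA per cell cannot be told apart.

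Most matrix genes had higher levels per length than the regulators, and Lum was the lowest of all. Per length, Dcn led with 141 ± 11.4 CPM per kilobase of exon (mean and SD over 6 libraries), and Col3a1 followed with 102 ± 14.1, Mfap4 with 92.8 ± 9.4 and Col1a1 with 79.5 ± 10.6. Below them lay Tcf21 with 52.0 ± 6.37, Ogn with 30.3 ± 4.15, Pdgfra with 29.5 ± 4.4, Nr2f2 with 9.6 ± 1.07 and Lum with 4.33 ± 1.51 CPM per kilobase. The ranges over the 6 libraries overlapped between Dcn and Col3a1, Col3a1 and Mfap4, Mfap4 and Col1a1, and Ogn and Pdgfra, and the other neighbours in this order did not overlap. Col3a1 was above Mfap4 in 4 of 6 libraries and Ogn above Pdgfra in 5 of 6, so the order within these pairs varied between libraries. Dcn ranked 206 of 18040 tested genes by this measure and Lum ranked 10320. Lengths are summed exons of all isoforms, which can understate the level of a gene with long exons that are seldom used.

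Nr2f2 (ENSMUSG00000030551, mm10 chromosome 7, 70351944 to 70366735, minus strand) encodes COUP-TFII, an orphan nuclear receptor found in interstitial mesenchyme and Leydig cell progenitors. It had 68.3, 78.8 and 84.9 CPM in knockout replicates 1, 2 and 3, against 79.9, 92.1 and 92.7 CPM in wild-type replicates 1, 2 and 3. Each knockout library was below the wild-type library of its number, but knockout replicate 3 was above wild-type replicate 1. The means were 77.3 ± 8.38 CPM in knockout and 88.2 ± 7.26 CPM in wild-type testes (SD, n = 3 each). The log2 fold change was -0.19 ± 0.092 (SE), with a 95% interval from -0.40 to 0.014, an unadjusted p of 0.0651 and an edgeR adjusted p of 1. With the block it was -0.19 ± 0.049, with an unadjusted p of 0.00162 and an edgeR adjusted p of 0.316. It was the 1 member of 9 under 0.05 before adjustment in that fit, where 7.48% of all genes were, and 3.89% were so with a lower value. A gene lower in 3 of 3 pairs is not rare here, since 14.7% of all tested genes were. The value kept its sign in 20 of 20 alternatives, from -0.26 to -0.11, and passed in 0 of 20. The opposite-strand noncoding gene B130024G19Rik shares 643 exon bases with Nr2f2 and had few counts, 3.86 ± 0.195 CPM in knockout and 4.55 ± 0.616 CPM in wild-type testes, and the strand setting of the counting is not known here.

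Tcf21 (ENSMUSG00000045680, chromosome 10, 22817279 to 22820128, minus strand) encodes a basic helix-loop-helix factor of gonadal mesenchyme and interstitial progenitors. Its level was 56.9, 57.7 and 70.3 CPM in knockout replicates 1 to 3, against 55.1, 72.3 and 69.2 CPM in wild-type replicates 1 to 3. Knockout replicate 2 was low beside its partner, while the libraries of pairs 1 and 3 nearly coincided. The means were 61.6 ± 7.5 CPM in knockout and 65.5 ± 9.17 CPM in wild-type testes (SD, n = 3 each). Its log2 fold change was -0.089 ± 0.12 (SE), with a 95% interval from -0.35 to 0.18 and an edgeR adjusted p of 1. With the block and without replicate 2 it was 0.035, so its sign rested on that pair.

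Pdgfra (ENSMUSG00000029231, chromosome 5, 75152292 to 75198215, plus strand) encodes the PDGF receptor alpha, a tyrosine kinase carried by interstitial cells and required in development for Leydig cells. It had 238, 295 and 354 CPM in knockout replicates 1 to 3, against 253, 304 and 329 CPM in wild-type replicates 1 to 3. The spread followed the replicate number, with both replicate 1 libraries low and both replicate 3 libraries high. Knockout over wild type, the log2 value was 0.0019 ± 0.15 (SE) without the block and -0.0076 ± 0.046 with it (edgeR adjusted p = 1 and 0.984). The blocked 95% interval ran from -0.11 to 0.093. In the same fits its ligand genes Pdgfa, Pdgfb, Pdgfc and Pdgfd had -0.099 ± 0.14, -0.056 ± 0.13, 0.12 ± 0.13 and -0.011 ± 0.14. The other receptor gene, Pdgfrb, which is also in the wider stroma list below, had -0.23 ± 0.13 and was lower in 3 of 3 pairs. Of these 5 genes 0 passed in edgeR with or without the block.

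The fibrillar collagen genes had lower means in the knockout testes, and the wild-type libraries varied widely. Col1a1 (ENSMUSG00000001506, chromosome 11, 94936224 to 94953042, plus strand) encodes the alpha 1 chain of type I collagen, the main fibril of connective tissue. It had 489, 494 and 491 CPM in knockout replicates 1 to 3, against 442, 595 and 619 CPM in wild-type replicates 1 to 3. The knockout libraries lay close together inside the wild-type range. The coefficient of variation was 0.575% in knockout and 17.4% in wild-type testes, a difference between 2 groups of 3 that was not tested. Its fitted change was, on the log2 scale, -0.17 ± 0.11 (SE), with a 95% interval from -0.42 to 0.090 and an edgeR adjusted p of 1. With the block and without pair 1, Col1a1 passed in edgeR at -0.30 ± 0.05 (adjusted p = 0.0365), as the single member of 9, where 63 genes passed overall (0.348%). With all 3 pairs the blocked value was -0.15 ± 0.11 (edgeR adjusted p = 0.828), and pair 1 had the opposite sign at 0.15.

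Col3a1 (ENSMUSG00000026043, chromosome 1, 45311538 to 45349706, plus strand) encodes type III collagen, which forms fine fibrils in soft organs. It had 931, 941 and 1018 CPM in knockout replicates 1 to 3, against 862, 995 and 1261 CPM in wild-type replicates 1 to 3. Wild-type replicate 3 was the highest library and wild-type replicate 1 the lowest, with all knockout libraries between them. For Col3a1 the log2 fold change was -0.11 ± 0.12 (SE, edgeR adjusted p = 1). Without wild-type replicate 3 it was 0.061, and without both replicate 3 libraries, with the block, 0.016. The pair ratios of Col3a1 on the log2 scale were 0.11, -0.081 and -0.31 in pairs 1, 2 and 3.

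**Figure D2:**
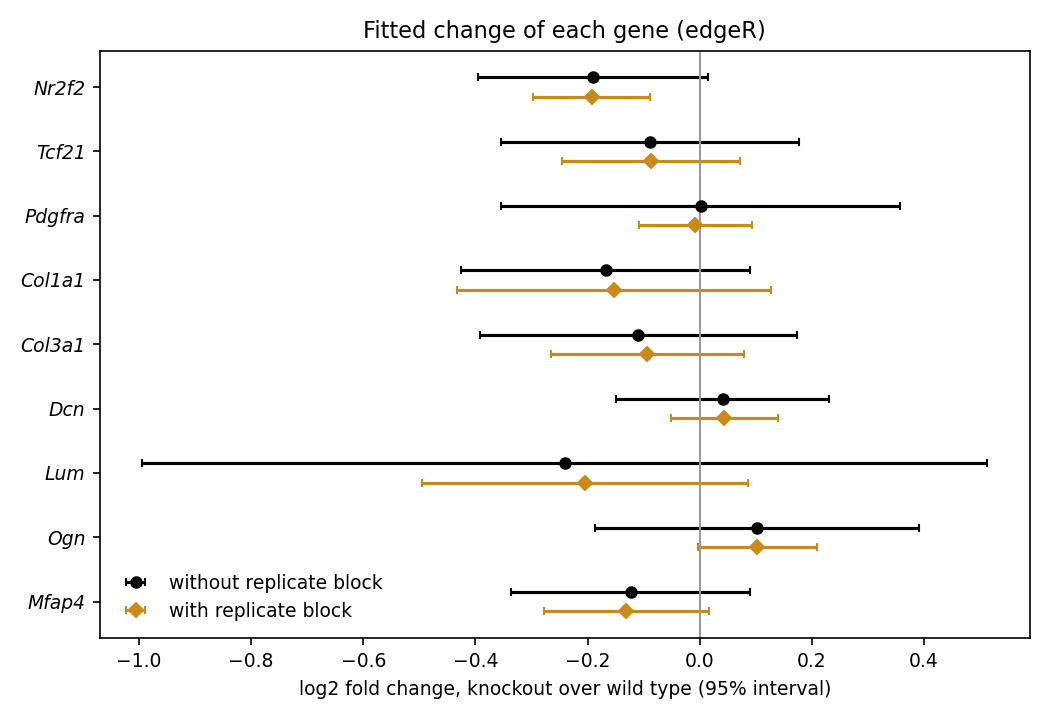
Fitted log2 fold change of each gene, knockout over wild type, with its 95% interval, from edgeR without the replicate block (black circles) and with it (orange diamonds). All 9 intervals without the block hold 0, and with the block that of Nr2f2 does not before adjustment over all genes.

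The 3 small leucine-rich proteoglycan genes, whose products bind collagen fibrils and govern their width and spacing, differed in the sign of their values. Dcn (ENSMUSG00000019929, chromosome 10, 97479500 to 97518162, plus strand) encodes decorin. It had 277, 302 and 315 CPM in knockout replicates 1 to 3, against 265, 279 and 325 CPM in wild-type replicates 1 to 3. The libraries of a number lay close to each other, and the log2 fold change was 0.041 ± 0.085 (SE), with a 95% interval from -0.15 to 0.23 and an edgeR adjusted p of 1.

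Lum (ENSMUSG00000036446, chromosome 10, 97565501 to 97572703, plus strand) encodes lumican and lies 47338 bases from Dcn. It had 6.15, 8.47 and 10.1 CPM in knockout replicates 1 to 3, against 6.61, 7.92 and 14.7 CPM in wild-type replicates 1 to 3. Wild-type replicate 3 stood above all other libraries, and Lum was the gene with the widest range of the 9, as its lowest and highest CPM differ most in proportion. It rests on 135 to 311 counts per library, the lowest depth among the members. For Lum the log2 fold change was -0.24 ± 0.32 (SE, edgeR adjusted p = 1), and without wild-type replicate 3 it was 0.19.

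Ogn (ENSMUSG00000021390, chromosome 13, 49608071 to 49624500, plus strand) encodes osteoglycin, also called mimecan. It had 70.9, 75.6 and 92.4 CPM in knockout replicates 1 to 3, against 67.9, 67.6 and 87.3 CPM in wild-type replicates 1 to 3. It was higher in 3 of 3 pairs, as were 13.9% of all tested genes, and the groups overlapped. For Ogn the log2 fold change was 0.10 ± 0.13 (SE, edgeR adjusted p = 1) and with the block 0.10 ± 0.049 (edgeR adjusted p = 0.668). Without knockout replicate 3 it was -0.018. Cenpp lies across Ogn on the opposite strand and shares 0 exon bases with it.

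The promoters of Nr2f2, Col3a1 and Ogn are shown because they set a regulator beside a collagen and a proteoglycan gene of the same tissue. Each run is the 250 bases before the RefSeq start on GRCm38.p6, written 5′ to 3′ on the gene's strand. The windows are chr7:70366747-70366996 (minus strand), chr1:45311288-45311537 (plus strand) and chr13:49607765-49608014 (plus strand). Capitals mark matches, on either strand, to the TATA box (TATAAA), the CCAAT box (CCAAT), the E-box bound by factors of the class of TCF21 (CANNTG), the half-site of nuclear receptors such as COUP-TFII (AGGTCA) or the GC box (GGGCGG), and some matches overlap.
Nr2f2: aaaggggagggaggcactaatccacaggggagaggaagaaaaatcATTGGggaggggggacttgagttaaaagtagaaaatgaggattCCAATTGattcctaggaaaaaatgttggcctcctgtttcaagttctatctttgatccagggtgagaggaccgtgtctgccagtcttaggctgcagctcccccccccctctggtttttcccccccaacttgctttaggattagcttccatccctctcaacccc
Col3a1: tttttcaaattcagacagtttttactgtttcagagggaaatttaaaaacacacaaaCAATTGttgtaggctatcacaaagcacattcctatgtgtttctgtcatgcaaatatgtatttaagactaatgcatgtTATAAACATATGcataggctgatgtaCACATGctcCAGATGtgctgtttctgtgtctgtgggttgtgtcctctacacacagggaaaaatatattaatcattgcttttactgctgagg
Ogn: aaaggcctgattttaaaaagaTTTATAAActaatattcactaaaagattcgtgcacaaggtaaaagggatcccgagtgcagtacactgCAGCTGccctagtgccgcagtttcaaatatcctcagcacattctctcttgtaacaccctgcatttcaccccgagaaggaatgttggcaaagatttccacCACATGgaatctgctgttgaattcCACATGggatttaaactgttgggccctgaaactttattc
The Col3a1 window held TATAAA once, 117 bases before the start, and the E-box 4 times, at 194, 111, 91 and 82 bases. The Ogn window held TATAAA on both strands in 1 overlapping stretch at 229 and 227 bases, and the E-box 3 times, at 162, 63 and 39 bases. The Nr2f2 window held CCAAT in 2 places, at 205 and 162 bases, the nearer one overlapping its single E-box. Among 32851 RefSeq promoter windows of the same length, 12.4% held the TATA box, 33.8% the CCAAT box, 66.2% the E-box, 14% the half-site and 32.7% the GC box. The half-site and the GC box were in 0 of the 5 member windows that the table holds, which are these 3 and those of Pdgfra and Tcf21. The Col3a1 window was poor in G and C, at 35.2% against a median of 52.4% over all windows, and it held 0 CpG dinucleotides. A match to these letters is a description of the sequence and does not show that a factor binds there.

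Other genes of the family had values on both sides of 0. On chromosome 10 Kera, which lies between Lum and Epyc, had 3 counts in all libraries together and was not tested, and Epyc had 0.35 ± 0.23. On chromosome 13 the log2 fold changes of the genes beside Ogn were -0.047 ± 0.24 for Omd, 0.27 ± 0.21 for Aspn and 0.0065 ± 0.097 for Ecm2. Elsewhere, Bgn had -0.12 ± 0.11, Fmod -0.26 ± 0.30, Optc 0.11 ± 0.20, Chad -0.27 ± 0.40, Podn 0.13 ± 0.49 and Tsku -0.11 ± 0.16. Prelp, which encodes a proteoglycan-like protein that anchors basement membranes to connective tissue, had the smallest p of the 11 tested. It had 39.7, 29.5 and 38.9 CPM in knockout replicates 1 to 3, against 30.5, 22.6 and 30.8 CPM in wild-type replicates 1 to 3. Each knockout library was above its partner, yet knockout replicate 2 was below 2 wild-type libraries. For Prelp the log2 fold change was 0.37 ± 0.15 (unadjusted p = 0.0364, edgeR adjusted p = 1) and with the block 0.37 ± 0.063 (edgeR adjusted p = 0.0775). Of 12 other family genes, 11 were tested, 6 were higher, 5 were lower and 0 passed in edgeR with or without the block.

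Mfap4 (ENSMUSG00000042436, chromosome 11, 61485431 to 61488900, plus strand) encodes a microfibril-associated glycoprotein that binds elastic fibres and collagen. It had 169, 196 and 147 CPM in knockout replicates 1 to 3, against 179, 193 and 187 CPM in wild-type replicates 1 to 3. Knockout replicate 3 was the lowest of the 6 libraries and knockout replicate 2 the highest. The log2 fold change was -0.12 ± 0.095 (SE), with a 95% interval from -0.34 to 0.090 and an edgeR adjusted p of 1. Mapk7 lies on the opposite strand and shares 89 exon bases with Mfap4, 4.63% of its exon length, and Mapk7 itself had 0.0062 ± 0.062.

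The difference between transcription factor and matrix genes was smaller than its spread between pairs. The mean log2 ratio of Nr2f2 and Tcf21, knockout over wild type, was -0.089, -0.28 and -0.053 in pairs 1, 2 and 3. For the 6 matrix genes Col1a1, Col3a1, Dcn, Lum, Ogn and Mfap4 it was 0.034, 0.0077 and -0.25. The difference between the roles, transcription factors minus matrix, was thus below 0 in pairs 1 and 2, at -0.12 and -0.28, and above 0 in pair 3, at 0.19. Its mean was -0.071 with an SD of 0.24 over 3 pairs. The fitted difference was -0.057, and it was 0.025 without wild-type replicate 2 and -0.17 without wild-type replicate 3, so its sign and size rested on single libraries. Within libraries the transcription factors lay 1.2 ± 0.0758 below the matrix genes in knockout and 1.13 ± 0.168 below them in wild-type testes (difference of mean log2 CPM, SD, n = 3 each). No p is given for these means, since the members were chosen with results of these data known.

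**Figure D3:**
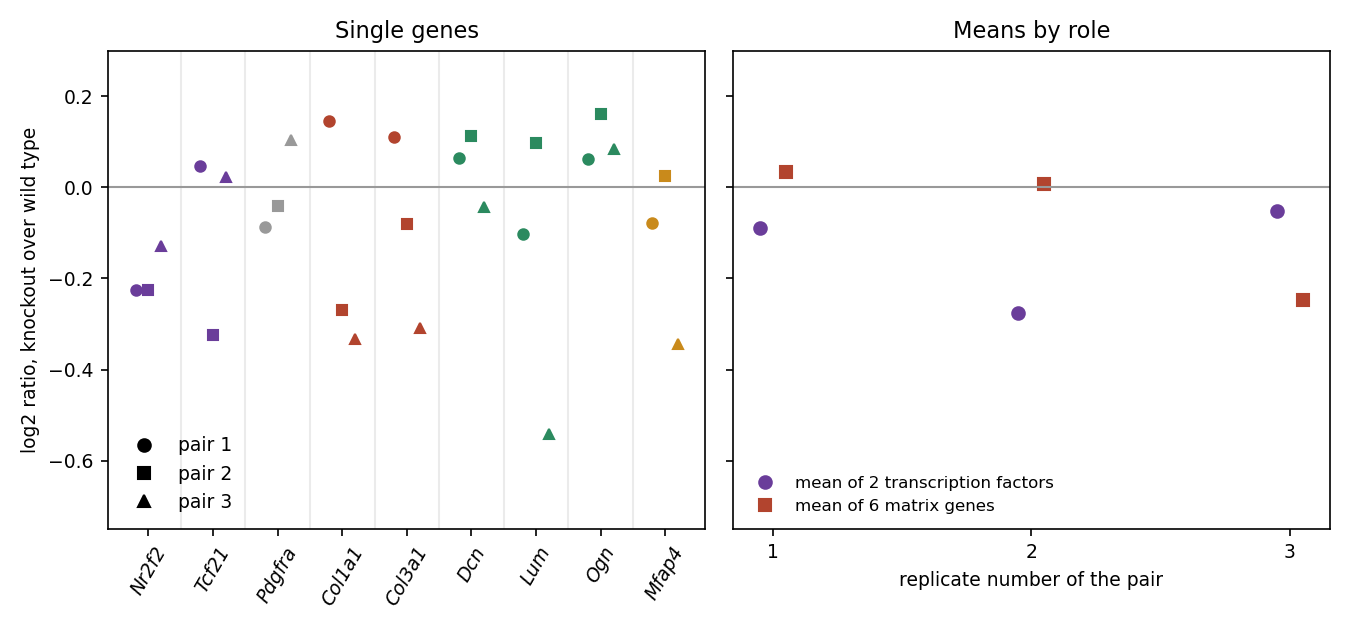
Log2 ratio of knockout over wild type within each same-number pair, for each gene (left, symbols for the pairs, colours for roles) and as the mean over 2 transcription factor and 6 matrix genes (right). The matrix mean is near 0 in pairs 1 and 2 and -0.25 in pair 3, and the transcription factor mean is lowest, at -0.28, in pair 2.

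Wild-type replicate 3 had the highest summed levels of markers of tissues that adjoin the testis, and several matrix genes were highest in it. The summed level of 7 epididymis and rete markers was 10.1 to 15.1 CPM in the knockout libraries, and 8.47, 13.9 and 70.3 CPM in wild-type replicates 1, 2 and 3. Of 4 mesothelium markers it was 7.65 to 14.6 CPM in knockout, and 6.34, 2.9 and 38.0 CPM in wild-type replicates 1 to 3. The sum of 5 adipose markers was at most 26.1 CPM in knockout, and 15.1, 17.2 and 54.8 CPM in wild-type replicates 1 to 3. Among defining markers, Crisp1, Cdh16, Adam7, Adipoq and Cidec were at 0 in at least 1 library, and Crisp1 reached 29.7 CPM in wild-type replicate 3, against 2.88 CPM in knockout replicate 3. Knockout replicate 3 was the highest knockout library in all 3 sums, at 15.1, 14.6 and 26.1 CPM, and it was also the highest knockout library for 7 of the 9 stroma genes. Single markers differed from their sums. Among knockout libraries Plin1 (9.78 CPM) and Lrrn4 (4.14 CPM) were lowest in replicate 3, while Fabp4 (12.1 CPM) and Msln (4.19 CPM) were highest there. Pax2 had 7.76 CPM in wild-type replicate 3, against 8.31 CPM in wild-type replicate 2. The part of these tissues in the levels of Lum, Col3a1 and Col1a1 was not tested. Without wild-type replicate 3 the median log2 fold change of the 9 members was 0.061 in place of -0.11, and 4 of 9 rather than 6 of 9 were below 0. That fit kept knockout replicate 3, the highest knockout library for 7 of the 9 members. Without both replicate 3 libraries the median was -0.025 with the block, where 5 of 9 were below 0, and -0.023 without it. Col14a1, a fibril-associated collagen gene named after its values were seen, had 19.8, 19.1 and 31.3 CPM in knockout replicates 1 to 3. In wild-type replicates 1 to 3 it had 15.5, 16.4 and 42.4 CPM, with wild-type replicate 3 the highest, as for Lum.

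**Figure D4:**
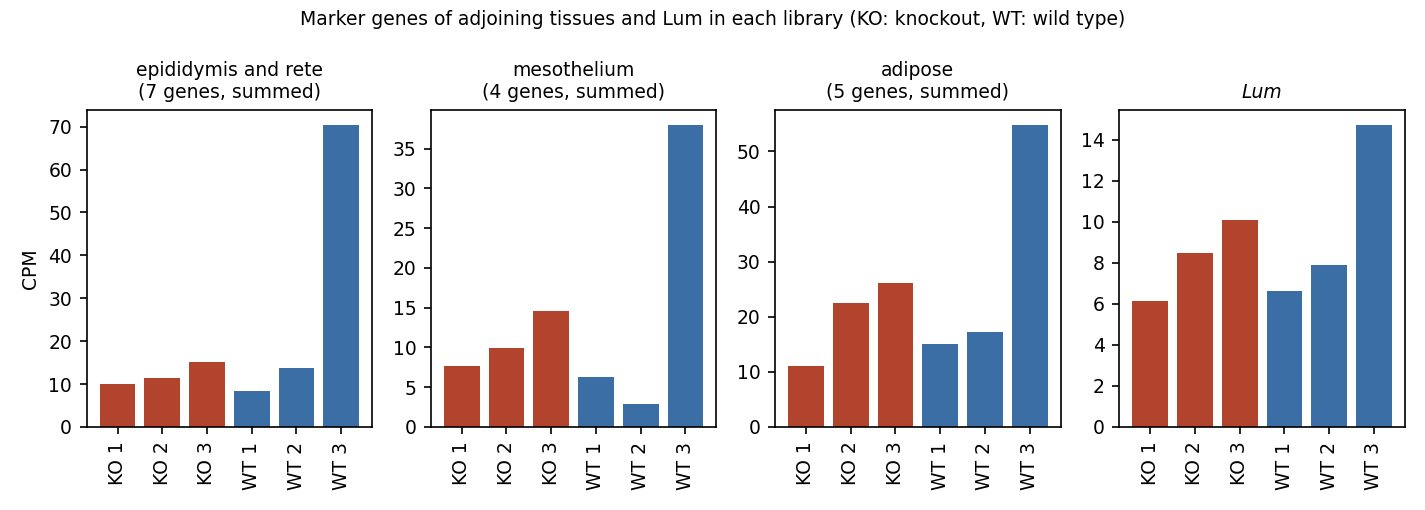
Summed CPM of marker genes of epididymis and rete, mesothelium and adipose tissue, and CPM of Lum, in each library (bars from 0, knockout red and at the left, wild type blue). Wild-type replicate 3 is the highest library in all 4 panels, at 70.3, 38.0, 54.8 and 14.7 CPM.

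Markers of other cell types are given for comparison with the stroma genes. The 7 Leydig markers, all of them detected in every library, summed to 362, 766 and 254 CPM in knockout replicates 1 to 3, against 340, 396 and 396 CPM in wild-type replicates 1 to 3. Knockout replicate 3 thus had the lowest Leydig sum and was highest within its group for 7 of the 9 stroma genes. Of the 7 Leydig markers only Hsd3b1 was not lowest there. Hsd3b1 had 111, 178 and 162 CPM in knockout replicates 1 to 3, against 136, 180 and 207 CPM in wild-type replicates 1 to 3. Peritubular myoid markers (6 genes) summed to 763 to 785 CPM in knockout and 714 to 787 CPM in wild-type libraries. Endothelial markers (6 genes) summed to 128 to 146 CPM in knockout and 135 to 168 CPM in wild-type libraries, and macrophage markers (6 genes) to 112 to 138 CPM in knockout and 93.6 to 133 CPM in wild-type libraries. Sertoli markers (5 genes) summed to 1237 to 1405 CPM in knockout and 1256 to 1502 CPM in wild-type libraries, and germ cell markers (5 genes) to 1441 to 1764 CPM in knockout and 1326 to 1786 CPM in wild-type libraries. Both replicate 1 libraries had the highest germ cell sum of their group, at 1764 CPM in knockout and 1786 CPM in wild type. Ddx4, Dazl, Sycp3 and Stra8 were each highest in replicate 1 of both groups. Zbtb16 was instead lowest there, at 80.7 CPM in knockout and 78.9 CPM in wild type. Replicate 1 also had the lowest levels of most stroma genes, and the part of the germ cell levels in this was not tested. Skeletal muscle markers (4 genes), of a tissue outside the testis, summed to 5.46 to 6.69 CPM in knockout and 7.24 to 7.43 CPM in wild-type libraries, and these groups did not overlap. Myh3, an embryonic myosin gene, made up most of that sum and had -0.34 ± 0.14 (edgeR adjusted p = 1). It had every knockout library below every wild-type library, as did 3.5% of all tested genes. Acta1 overlapped between the groups, at -0.037 ± 0.24. Too low for testing, Ckm had 0.227 ± 0.135 CPM in knockout and 0.407 ± 0.176 CPM in wild-type testes (SD, n = 3 each). Tnnt3, also untested, went the other way, with 0.469 ± 0.171 CPM in knockout and 0.229 ± 0.0883 CPM in wild-type testes.

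Most genes of the wider stroma, collagen, and elastic and adhesive lists had values below 0 in the knockout testes, and none passed. In the list of wider stroma and progenitor genes 16 of 18 had a log2 fold change below 0, against 52.2% of all tested genes, with a median of -0.20. In that list 8 of 18 were lower in 3 of 3 pairs, against 14.7% of all tested genes. Endothelial markers were also below 0 in 6 of 6, with a median of -0.10, and 3 of them were lower in 3 of 3 pairs. Peritubular myoid and macrophage markers were above 0 in 5 of 6 each, with medians of 0.034 and 0.087. Of these 18 marker genes 0 passed in edgeR with or without the block, and the part of other cell types in the list values was not tested. Within the wider stroma list, the smallest p values were those of Gli1 and Ptch1, at -0.32 ± 0.13 and -0.26 ± 0.11. Both are targets of hedgehog signalling. Gli1 had 30.5, 29.9 and 22.2 CPM in knockout replicates 1 to 3, against 34.0, 38.0 and 31.0 CPM in wild-type replicates 1 to 3, and its groups did not overlap (3.5% of all genes lay below in this way). The edgeR adjusted p was 1 for both genes without the block, and with it 0.224 for Gli1 and 0.148 for Ptch1.

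Collagen chain genes were below 0 in 9 of 9, with a median of -0.17, and 1 was lower in 3 of 3 pairs. The 3 with the smallest p were Col6a2, Col5a1 and Col6a1, at -0.26 ± 0.11, -0.17 ± 0.091 and -0.14 ± 0.092, chains of the beaded filament collagen VI and of the fibril collagen V. Of genes for collagen processing 9 of 12 were below 0, with a median of -0.093. Bmp1, the procollagen C-proteinase, had -0.31 ± 0.11 and with the block -0.31 ± 0.059 (edgeR adjusted p = 0.117). The crosslinking enzyme gene Loxl1 had -0.21 ± 0.11 and the collagen chaperone gene Serpinh1 -0.25 ± 0.13. In pairs 1, 2 and 3 the log2 ratios were 0.014, -0.089 and -0.68 for Serpinh1. They were 0.0082, -0.19 and -0.59 for Col6a2, and 0.053, -0.11 and -0.35 for Col6a1. Bmp1, Loxl1 and Col5a1 were lower in 3 of 3 pairs. Of elastic and adhesive matrix genes 12 of 13 were below 0, with a median of -0.16, and the 3 with the smallest p were Vcan (versican) at -0.54 ± 0.22, Eln (elastin) at -0.15 ± 0.076 and Mfap2, a microfibril gene, at -0.21 ± 0.11.

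In these 4 lists, 0 genes passed in edgeR with or without the block, and the lists share cells and libraries, so their genes are not independent. By pair the medians were -0.10, -0.24 and -0.24 for wider stroma, and 0.053, -0.15 and -0.39 for collagen chains in pairs 1, 2 and 3. They were -0.011, -0.11 and -0.16 for processing, and -0.018, -0.18 and -0.23 for elastic and adhesive matrix. Without wild-type replicate 3 the medians were -0.10, -0.039, -0.056 and -0.078 in the order of the lists above, so that the collagen chain median moved most. With the block and without pair 3 the collagen chain median was -0.035 and the wider stroma median -0.21. In that fit 8 of 9 collagen chain genes and 11 of 18 wider stroma genes were below 0. Without wild-type replicate 3 these counts were 6 of 9 and 13 of 18, against 9 of 9 and 16 of 18 with all libraries.

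**Figure D5:**
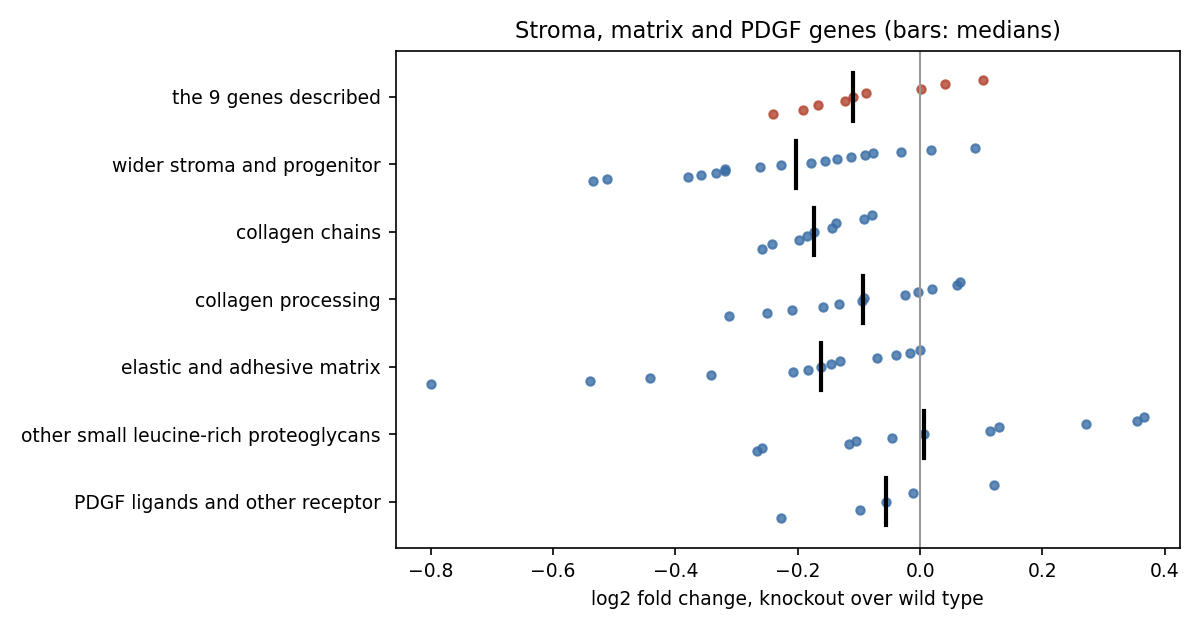
Fitted log2 fold changes, knockout over wild type, of the 9 genes (red) and of tested genes in 6 other lists (blue), with the median of each as a black bar. The medians of the wider stroma, collagen chain, and elastic and adhesive lists are -0.20, -0.17 and -0.16, and that of the other small leucine-rich proteoglycans is 0.0065.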

How the data were processed

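RNA-seq counts for 3 knockout and 3 wild-type whole testes were taken as deposited. The authors deposited raw counts per gene without normalization, from libraries that kept strand, per the labels' protocols. The submitters' processing notes name mm10, featureCounts 1.6.0, GSNAP and bcl2fastq 2.19.1. Annotation release, strand setting and multi-mapping rule were not given in those notes. The other column, exon length in bases, is as deposited. Of 49763 rows, 92 without a mouse gene identifier, holding 1 count, were left out, and 49412 of 49671 identifiers matched GENCODE M21.

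Tests used edgeR 4.0.16 in R 4.3.3 (filterByExpr, TMM, robust quasi-likelihood fit, two-sided, n = 3 per group), and the 95% intervals use its moderated degrees of freedom. DESeq2 1.42.0 and limma 3.58.1 (voom), other scalings and filters, and fits without each library or pair were alternatives. Log2 CPM used a prior count of 2. Same-number libraries deviated from their group means together (r across genes 0.425, 0.258 and 0.284, all over 0.1). On that basis the numbers were used as pairs, although the labels do not say what they mark. The labels name separate samples and the design text 3 mice per genotype; replicates differed by a chi-square per degree of freedom of 7.36 to 13.0, so no replicates agreed within sampling noise. The fits were tested on simulated counts without replicate pairing.

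The members and lists were chosen with earlier results of these data known. Genes named outside the members are the 3 with the smallest p in each list, all tested genes of the 2 small families, Ankrd31 and the genes of most similar profile; 1 gene that this rule names is not reported here. Marker genes, the genes overlapping or neighbouring a member (B130024G19Rik, Cenpp, Mapk7) and the untested Kera are named outside this rule. Col14a1, Myh3, the markers at 0 and the other single markers given were named after their values were seen. Promoter sequences are from RefSeq on GRCm38.p6, which held 5 of the 9 members. Sampling weighs most where counts are low, and among the members Lum had the fewest. The coefficient of variation of Lum was 24.1% in knockout and 44.7% in wild-type testes (n = 3 each).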

Additional observations from a re-analysis of the deposited data

How the results depend on the processing

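Of the 9 members, Nr2f2, Col1a1 and Mfap4 kept their sign in all 20 alternatives. The transcription factor minus matrix difference had a mean of -0.071 and an SD of 0.24 over pairs, and its fitted value was -0.057. The fitted value was 0.025 without wild-type replicate 2, 0.042 with the block and without pair 2, and -0.17 without wild-type replicate 3. Without both replicate 3 libraries it was -0.21 with the block and -0.21 without it. The number of genes called, 0 without the block, was 8 with the replicate block, 2 with DESeq2, 14 with DESeq2 and the block, 8 with limma voom and the block, and 1 with no filter. Leaving out pair 1, 2 or 3 in the blocked fit gave 63, 57 and 0 genes, and the members called were 1 (Col1a1, -0.30) without pair 1 and 0 otherwise. The median of the members ran from -0.20 without wild-type replicate 1 to 0.061 without wild-type replicate 3. Without both replicate 3 libraries it was -0.025 with the block and -0.023 without the block.

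Signs turned as follows, and the cause was not tested. Pdgfra, at 0.0019, was -0.0076 with the block, -0.0080 with limma voom, -0.0040 and -0.0060 with DESeq2 and voom and the block, -0.015 with library totals only, -0.063 with the block and -0.061 without it when both replicate 3 libraries were left out (the last chosen after the data were seen). When 1 library was left out it ran from -0.15 to 0.14. Over the same leave-outs Col3a1 ran from -0.23 to 0.061, Lum from -0.45 to 0.19, Dcn from -0.019 to 0.14 and Ogn from -0.018 to 0.24. Without both replicate 3 libraries Col3a1 was 0.016 with the block and 0.013 without it, and Lum 0.0028 and 0.0089. Tcf21 was 0.035 with the block and without pair 2. For Dcn the value was -0.00092 without knockout replicate 3. The blocked fit of all pairs changed no member's call. The 95% intervals without the block held 0 for all 9 members.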

Other observations

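The genes whose levels over the 6 libraries were most like those of the matrix members were Itga9, Aff2, Flrt2, Col4a5 and Igf2bp2. Likeness was the Euclidean distance between log2 CPM deviations from a gene's own mean and the same averaged over the 6 matrix genes, among 11011 genes with a mean of at least 10 CPM. Itga9, an integrin subunit gene, was nearest at 0.0582, and Igf2bp2 was the fifth at 0.104, against a median distance of 0.44. The matrix profile was -0.15, -0.00017 and 0.049 in knockout replicates 1 to 3, and -0.19, -0.0079 and 0.30 in wild-type replicates 1 to 3. For the 2 transcription factors the nearest were Castor2, Map3k1, Ephb6, Spen and Lamb1, at distances of 0.0655 to 0.0874. Their profile was -0.21, -0.098 and 0.099 in knockout replicates 1 to 3, and -0.12, 0.18 and 0.15 in wild-type replicates 1 to 3. The profile of the matrix genes thus peaked in wild-type replicate 3, and that of the transcription factors was high in wild-type replicates 2 and 3 alike.

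Wild-type replicate 3 was the highest of the 6 libraries for 13 of 18 wider stroma genes (72.2%), 7 of 9 collagen chain genes (77.8%) and 5 of the 9 members (55.6%), against 16.7% of all tested genes. It was the highest for 8 of 13 elastic and adhesive genes (61.5%), 6 of 11 other small leucine-rich proteoglycan genes (54.5%), 4 of 12 collagen processing genes (33.3%) and 2 of 5 PDGF genes (40%), the last equal to wild-type replicate 2. These counts are a description, given with no test.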
